A study of Mus musculus with 9 samples.

Results

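Lysosomal hydrolases and the membrane proteins of the lysosome were examined as 35 genes of the expression table, chosen by symbol from a written list, out of 24411 genes in all. All 35 symbols were found in the table, and none was lost to the filter on low values. By role, they were 13 glycosidases, 5 sulfatases, 3 lipid and thioester hydrolases, 4 proteases and secreted cofactors, 2 lipid transfer proteins, 6 membrane proteins and 2 transcription factors.

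The RNA was measured in 9 libraries of mouse macrophages that keep proliferating in culture, with 3 lines from yolk sac (YS lines), 3 from fetal liver (FL lines) and 3 from bone marrow (BM lines). All lines came from C57BL/6 mice, with yolk sac taken at E9.5, fetal liver at E14.5 and bone marrow from adults, and all were grown with M-CSF, the cytokine on which they depend. Cells of several mice were pooled to start the cultures, a line was the bulk culture of its own dish or well, and passage numbers were similar. Replicates were therefore cultures and not animals, so the p-values measure the spread between lines, which may be technical.

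The lysosome is the acidic compartment in which macrophages break down what they engulf. Its hydrolases are tagged with mannose 6-phosphate in the Golgi and sorted to it, and loss of a single enzyme often gives a storage disease. Many genes of the compartment carry a short promoter motif, the CLEAR element, which is bound by the transcription factors TFEB and TFE3.

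Promoter windows of RefSeq transcripts (GRCm38.p6), from 250 bases before to 50 bases after each start, were available for 32 of the 35 genes, all except Npc1, Galns and Aga. The core of the CLEAR element, TCACGTG on either strand, was present in the window of 10 of these 32 genes (31.2%), compared with 3.77% of 32851 windows of all genes and 7.25% of the 8929 tested genes with a window. These 10 were Lamp1, Gaa, Gla, Glb1, Naglu, Sgsh, Cln3, Mcoln1, Lgmn and Arsa. The shorter letters CACGTG, which lie within the core and overlap it, were in the windows of the same 10 genes, against 7.15% of all windows and 12.1% of the tested genes. The windows below, 80 bases each and written 5′ to 3′ on the strand of the gene, are shown because the results turn on these genes or because they show how the motif is spread, and capitals mark each match of the core. Lamp1 (chr8:13159081-13159160, plus strand) held 4 matches, Lgmn (chr12:102439093-102439172, minus strand, at the second start listed), Glb1 (chr9:114400988-114401067, plus strand) and Arsa (chr15:89477435-89477514, minus strand) held 1 each, and Lipa (chr19:34527475-34527554, minus strand) held none in these letters.
Lamp1: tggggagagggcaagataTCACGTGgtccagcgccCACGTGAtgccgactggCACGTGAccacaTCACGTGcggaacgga
Lgmn: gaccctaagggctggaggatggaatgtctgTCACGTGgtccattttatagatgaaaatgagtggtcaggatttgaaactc
Glb1: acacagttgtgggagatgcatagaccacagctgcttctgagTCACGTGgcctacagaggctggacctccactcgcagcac
Arsa: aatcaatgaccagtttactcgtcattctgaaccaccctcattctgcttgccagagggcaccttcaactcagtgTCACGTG
Lipa: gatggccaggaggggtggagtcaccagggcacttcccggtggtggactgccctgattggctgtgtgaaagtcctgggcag

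Levels are given as TPM, a unit that corrects the reads of a gene for its length and brings all libraries to a common sum, so that levels of different genes can be set side by side. All 35 genes reached 10 TPM in every library, as did 63.3% of the 11753 genes tested. Grn, which encodes the progranulin precursor, had the highest median, 2482.75 TPM over the 9 libraries. Psap followed at 1957.5 TPM, Lamp1 at 1418.98 TPM and Cd63 at 965.21 TPM. At the other end, Tfeb had a median of 18.72 TPM and Arsa of 26.18 TPM. Between its lowest and its highest library, Lgmn differed by 20.05-fold, Lipa by 7.10-fold and Ids by 3.88-fold, while Tpp1, a tripeptidyl peptidase, differed by 1.299-fold. The 35 genes together held from 0.997% to 1.24% of all TPM in the YS lines (mean 1.14% ± 0.127, SD, n = 3), from 1.32% to 1.51% in FL lines (1.42% ± 0.0956) and from 1.20% to 1.26% in BM lines (1.22% ± 0.0352). All 3 FL lines were above every YS and BM line in this share, and YS and BM lines overlapped. This pattern depended in part on the abundant Psap and Grn. Without them, FL lines 2 and 3 (0.9248% and 0.9255%) were still the highest, but FL line 1 (0.857%) was below BM line 3 (0.864%). The YS lines, at most 0.815%, were then all below the BM lines, at least 0.823%.

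**Figure D1:**
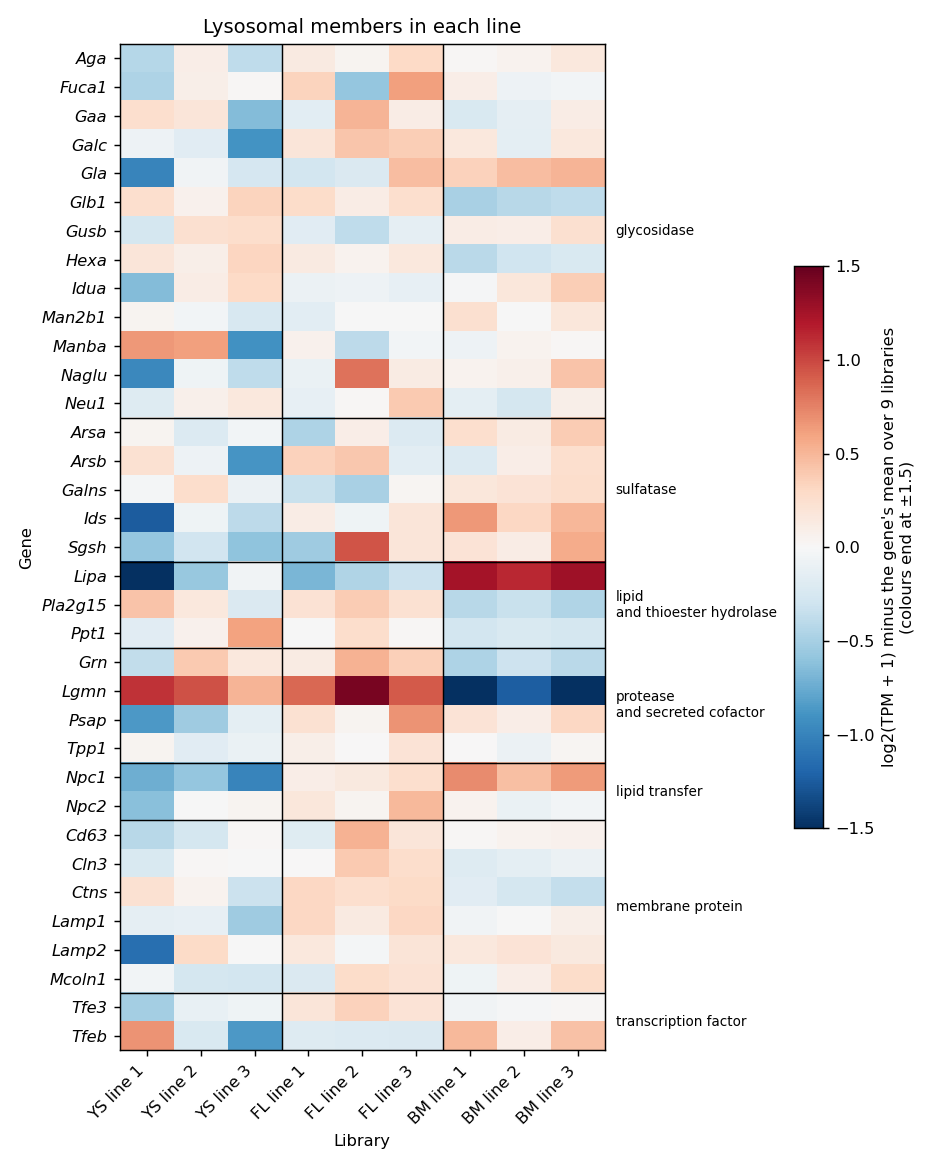
Heat map of the 35 genes (rows, grouped by role) in the 9 libraries (columns), coloured by log2(TPM + 1) minus the mean of the gene over the 9 libraries, with colours ending at ±1.5. Lgmn is high in all YS and FL lines and low in the 3 BM lines, Lipa is the reverse, and most other rows show small differences, with the lowest values often in YS line 1 or YS line 3.

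Facts of the libraries bear on these values. TPM keeps no record of depth, and the number of genes at 1 TPM or more ranged from 10977 to 11457 per library. All 8 macrophage markers listed were above 1 TPM in every line, and Lyz2 was the highest of them in every line. Yet their summed level was 4215 to 9309 TPM in YS lines, 11786 to 28521 TPM in FL lines and 11717 to 13300 TPM in BM lines. Without Lyz2 the sums were 3052 to 5778 TPM in YS, 5980 to 7022 TPM in FL and 5111 to 5731 TPM in BM lines, so that YS and BM lines overlapped. Of the 8 markers, between YS and BM lines only Lyz2 was called lower in YS lines and Fcgr1 was called 25.03-fold higher, while Spi1 differed by 1.01-fold. Between YS and FL lines, Lyz2 (5.185-fold) and Mertk (3.522-fold) were called lower in YS lines. Fcgr1 (16.24-fold) and Mertk (3.967-fold) were called higher in FL than in BM lines. Cd68, itself a lysosomal membrane protein, is also in the list. Markers of mast cells, fibroblasts and lymphocytes summed to at most 1.42 TPM. Of the neutrophil markers, S100a8 was at 10.49 to 25.11 TPM in FL lines, 3.43 to 5 TPM in BM lines and 0 to 2.19 TPM in YS lines and was called in all 3 comparisons, while Mpo, Elane, S100a9, Camp and Ngp were at or near 0. The dendritic cell marker Zbtb46 was called higher in YS (6.03 to 7.09 TPM) than in BM lines (2.55 to 2.91 TPM). Of the other dendritic markers listed, Flt3 and Cd209a were at 0 TPM in every line. Xcr1 and Clec9a were under 1 TPM in every line and not tested, Xcr1 being higher and Clec9a lower in YS than in BM lines. Hepatocyte markers, mostly Trf in YS and FL lines and mostly Afp in BM lines 1 to 3, summed to 66.42 to 128.18 TPM in YS and FL lines and to at most 14.52 TPM in BM lines, and endothelial markers to 18.63 to 51.68 TPM in FL lines, at most 55.75 TPM in YS lines and at most 1.14 TPM in BM lines. Most of the endothelial sum in FL and YS lines was Kdr, at 17.37 to 50.36 TPM and 0.29 to 54.35 TPM. Cdh5 was at most 1.38 TPM and Tek at most 0.04 TPM, and Emcn and Cldn5 were listed at 0 in every line. The part of these markers in the results was not tested. BM line 2 stood apart through hemoglobin transcripts, with Hba-a1 at 214.99 TPM against at most 8.62 TPM elsewhere. Among BM lines it was also highest for Fcgr1 (42.1 TPM against 5.47 and 1.68 TPM) and Trf (6.52 TPM against 0.13 and 0.45 TPM). Mertk was lowest there (9.67 TPM), and Csf1r and Spi1 lay between the other BM lines. BM line 2 had 14195 genes above 0 TPM, against 13368 and 13345 in BM lines 1 and 3. In bulk samples, fewer cells of a type and less RNA per cell cannot be told apart.

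Values were compared as log2(TPM + 1) by limma over all 9 libraries, and a gene was called at a false discovery rate (FDR, Benjamini-Hochberg over all 11753 genes) under 0.1 when it also changed over 2-fold, the limits of the study. This scale understates a change where the values of a group are low. With a pseudocount of 0.1 in place of 1 TPM, the difference of YS minus BM went from 3.68 to 5.54 for Ctsh and from -7.95 to -9.51 for Ctsk. Both genes are described further on, and Ctsh was under 1 TPM in all BM lines and Ctsk in all YS lines. Between YS and BM lines, 4 of the 35 genes were called (11.4%), while 12.8% of all tested genes were. Lgmn was higher in YS lines, as were 7.57% of all tested genes, and Lipa, Npc1 and Ids were lower, as were 5.22%. Between FL and BM lines, 2 genes were called (5.71%), Lgmn higher and Lipa lower in FL lines, against 10.3% of all tested genes (6.01% higher and 4.3% lower). Between YS and FL lines, limma called none of the 35, against 3.79% of all tested genes (1.95% higher and 1.85% lower in YS lines), although 9 had an unadjusted p under 0.05, all lower in YS lines. No other tool was run on these values. The same BM lines entered both of the first comparisons, so their calls are not independent.

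At FDR under 0.1 with any fold, the count was 9 in YS against BM (25.7%), of which 4 were higher and 5 lower in YS lines, where 37.9% of all tested genes passed (23.5% higher and 14.4% lower). In FL against BM it was 11 (31.4%), of which 7 were higher and 4 lower in FL lines, where 27.6% of all tested genes passed (17% higher and 10.6% lower). Between YS and FL lines it was 5 (14.3%, all lower in YS lines), where 12.8% of all tested genes passed (6.2% higher and 6.56% lower). The median log2 difference of the 35 genes was -0.21 for YS minus BM, 0.12 for FL minus BM and -0.27 for YS minus FL, beside medians over all tested genes of 0.11, 0.09 and 0.02. Thus 24 of the 35 genes were lower in YS than in BM lines, 14 were lower in FL than in BM lines and 26 were lower in YS than in FL lines. Of all 11753 tested genes, 4848, 4810 and 5623 were lower in the same comparisons. The values of the groups did not overlap for 16, 19 and 7 of the 35 genes in these comparisons, compared with 49%, 49.5% and 26.1% of all tested genes.

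Scaling moved the medians and the first of these splits. With median-of-ratios scaling, which brought the median of all tested genes for YS minus BM from 0.11 to 0.0021, the median of the 35 genes was -0.33 and 16 genes passed the FDR, 4 higher and 12 lower. With quantile normalization 15 passed, 4 higher and 11 lower, and the 4 calls were made under both scalings. Of all 11753 tested genes, 4357 passed with median-of-ratios scaling and 4248 with quantile normalization, beside 4455 without them. The FL minus BM median went from 0.12 to 0.02 with median-of-ratios scaling and to 0.06 with quantile normalization, and to 0.06 also without FL line 2 or FL line 3, with 19 to 21 of the 35 genes higher in FL lines in these 4 settings. Without BM line 2, the called genes numbered 4, 2 and 0 in the 3 comparisons, and those past the FDR at any fold 9, 8 and 1. In FL against BM the latter count was 6 without BM line 1 and 5 without BM line 3. Over all tested genes it fell likewise in these settings, from 3247 to 1933 and 1834. In YS against FL the count of the 35 genes fell to 1 without any one of FL line 2, FL line 3 and the 3 BM lines, whose spread enters the shared estimate. It rose to 8 without YS line 2. Over all tested genes the count went from 1500 to between 287 and 694 without any one of the former lines, and to 1771 without YS line 2. Npc1 passed the FDR between YS and FL lines under all 18 alternatives tried. Of the other 4 in that comparison, Tfe3 passed in 12, Psap in 10, Lamp1 in 9 and Galc in 8. In YS against BM, Glb1 and Hexa passed in 18, Gla in 17, and Psap and Pla2g15 in 16. In FL against BM, Glb1, Hexa and Pla2g15 passed in 18, Ctns in 17, Grn in 16, Npc1 in 14, Galns in 13, Cln3 in 11 and Arsa in 10.

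**Figure D2:**
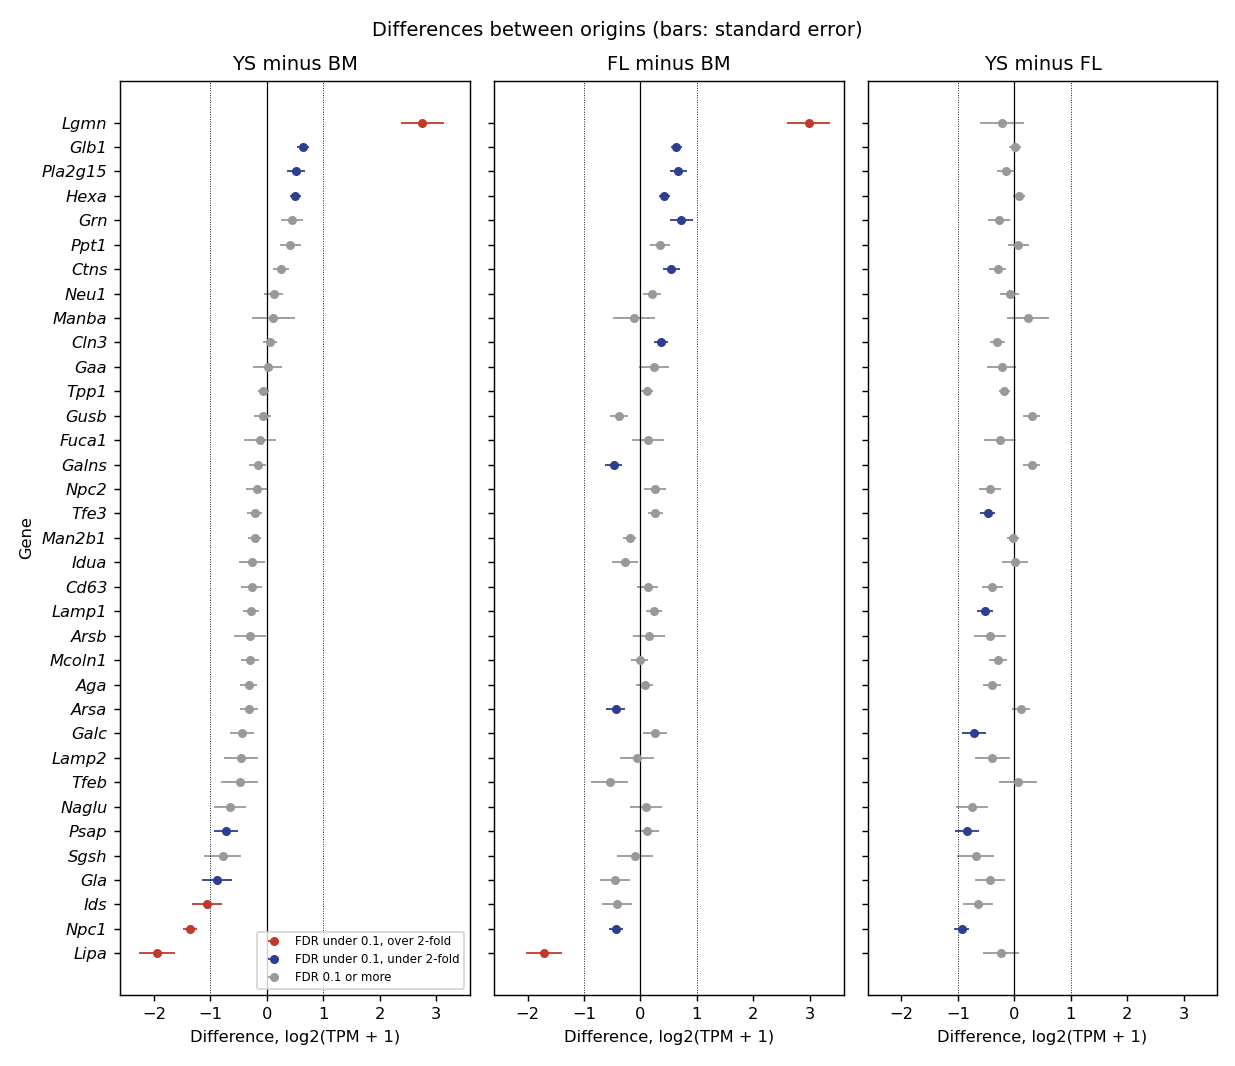
Differences between origins for the 35 genes, as log2(TPM + 1) with bars of 1 standard error, in 3 panels (YS minus BM, FL minus BM, YS minus FL), with genes in the order of the first panel. Red points passed the FDR and 2-fold, blue points passed the FDR with a smaller change, and grey points did not pass. Lgmn lies far to the right and Lipa far to the left in both comparisons with BM lines, and in YS minus FL no point reaches -1 or 1.

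Among the proteases and secreted cofactors, Lgmn encodes legumain, the asparaginyl endopeptidase that processes cathepsins and antigens. Its level was 903.11, 826.35 and 609.41 TPM in the YS lines 1 to 3, 776.64, 1144.77 and 808.62 TPM in the FL lines and 138.33, 180.31 and 57.1 TPM in the BM lines. All 6 YS and FL lines were above all 3 BM lines, and among BM lines the highest was line 2 and the lowest line 3, which made Lgmn the most variable of the 35 genes there. The difference was 2.76 ± 0.385 (log2, SE) for YS minus BM (6.78-fold, adjusted p = 0.00288) and 2.98 ± 0.385 for FL minus BM (7.89-fold, adjusted p = 0.00169). YS and FL lines overlapped, with a difference of -0.22 ± 0.385 (adjusted p = 0.740). Without BM line 2, the line with hemoglobin transcripts, the differences from BM lines were 3.10 and 3.32.

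Psap encodes prosaposin, from which the saposins that activate sphingolipid hydrolases are cut. It was at 1005.98, 1261.71 and 1648.03 TPM in the YS lines, 2146.76, 1886.98 and 2910.94 TPM in the FL lines and 2112.57, 1957.5 and 2264.8 TPM in the BM lines. Every YS line was below every other line, and FL and BM lines overlapped. The difference was -0.72 ± 0.213 for YS minus BM (adjusted p = 0.0368) and -0.83 ± 0.213 for YS minus FL (adjusted p = 0.0617), both under 2-fold.

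Grn rose by 0.72 ± 0.198 in FL over BM lines (adjusted p = 0.0348), from 1653.48, 1843.54 and 1725.44 TPM in the BM lines to 2482.75, 3266.95 and 2927.17 TPM in the FL lines. Its YS values of 1763.41, 2987.13 and 2550.88 TPM overlapped both groups, with line 1 at the level of BM lines. Tpp1, the other protease of the group, ranged from 243.36 to 316.17 TPM over the 9 lines and passed in no comparison.

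Of the lipid and thioester hydrolases, Lipa encodes the lysosomal acid lipase, which hydrolyses cholesteryl esters and triglycerides. It stood at 143.7, 284.34 and 405.91 TPM in the YS lines, 261.33, 307.47 and 336.2 TPM in the FL lines and 999.76, 921.31 and 1019.57 TPM in the BM lines. The 3 BM lines were close together and far above every YS and FL line, while the YS lines spread on both sides of the FL lines. Lipa fell by 1.94 ± 0.318 in YS against BM lines (3.83-fold, adjusted p = 0.00473) and by 1.70 ± 0.318 in FL against BM lines (3.26-fold, adjusted p = 0.00745). Lipa was the single gene of the 35 on chromosome 19, whose 426 tested genes had a median difference of -0.53 for YS minus BM and -0.80 for FL minus BM, beside 0.12 and 0.11 for all other chromosomes. The part of this chromosome-wide shift in the Lipa values was not tested.

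Pla2g15, a lysosomal phospholipase, was at 89.47, 74.13 and 56.62 TPM in the YS lines, 77.26, 86.05 and 77.51 TPM in the FL lines and 49.25, 52.44 and 48.17 TPM in the BM lines. BM lines were below all others, and the differences were 0.52 ± 0.157 for YS (adjusted p = 0.0389) and 0.67 ± 0.157 for FL (adjusted p = 0.0186). Ppt1, a thioesterase that removes palmitate from proteins, also had its 3 lowest values in BM lines (108.02 to 111.93 TPM), yet its differences of 0.42 and 0.35 did not pass.

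Npc1 and Npc2 pass cholesterol out of the lysosome, Npc2 in the lumen and Npc1 in the membrane. Npc1 was at 96.26, 106.52 and 80.23 TPM in the YS lines, 171.41, 177.68 and 190.86 TPM in the FL lines and 262.42, 218.44 and 248.73 TPM in the BM lines. The groups were ordered YS below FL below BM with no overlap between neighbours. The difference was -1.36 ± 0.127 for YS minus BM (2.57-fold, adjusted p = 0.000645), -0.43 ± 0.127 for FL minus BM (adjusted p = 0.0456) and -0.93 ± 0.127 for YS minus FL (adjusted p = 0.0129). Npc1 passed the FDR in all 3 comparisons, the only one of the 35 genes to do so, and the second step, FL to BM, was lost in 4 of 18 alternatives. Npc2 ranged from 321.98 TPM in YS line 1 to 699.43 TPM in FL line 3 and passed in none.

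The sulfatases remove sulfate groups from glycosaminoglycans and sulfatides. Ids, the iduronate sulfatase, was at 17.04, 39.87 and 31.59 TPM in the YS lines, 45.12, 39.95 and 47.39 TPM in the FL lines and 66.14, 52.13 and 59.31 TPM in the BM lines. The YS values were below all FL and BM values, and YS line 1 was lowest. Ids fell by 1.05 ± 0.267 in YS against BM lines (2.08-fold, adjusted p = 0.0213). The difference was -0.72 without YS line 1 and -0.97 without BM line 1, in both cases under 2-fold. The other 4 sulfatases were not called. Galns, a sulfatase of keratan sulfate, was at 65.34, 58.61 and 83.92 TPM in the FL lines and at 92.6, 95.53 and 98.97 TPM in the BM lines (-0.48 ± 0.150, adjusted p = 0.0564). Arsa, the sulfatase of sulfatides, was at 18.04, 27.28 and 21.92 TPM in the FL lines and at 30.32, 27.71 and 33.36 TPM in the BM lines (-0.44 ± 0.161, adjusted p = 0.0907). In both, FL lines lay below BM lines, and YS values overlapped those of FL lines.

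**Figure D3:**
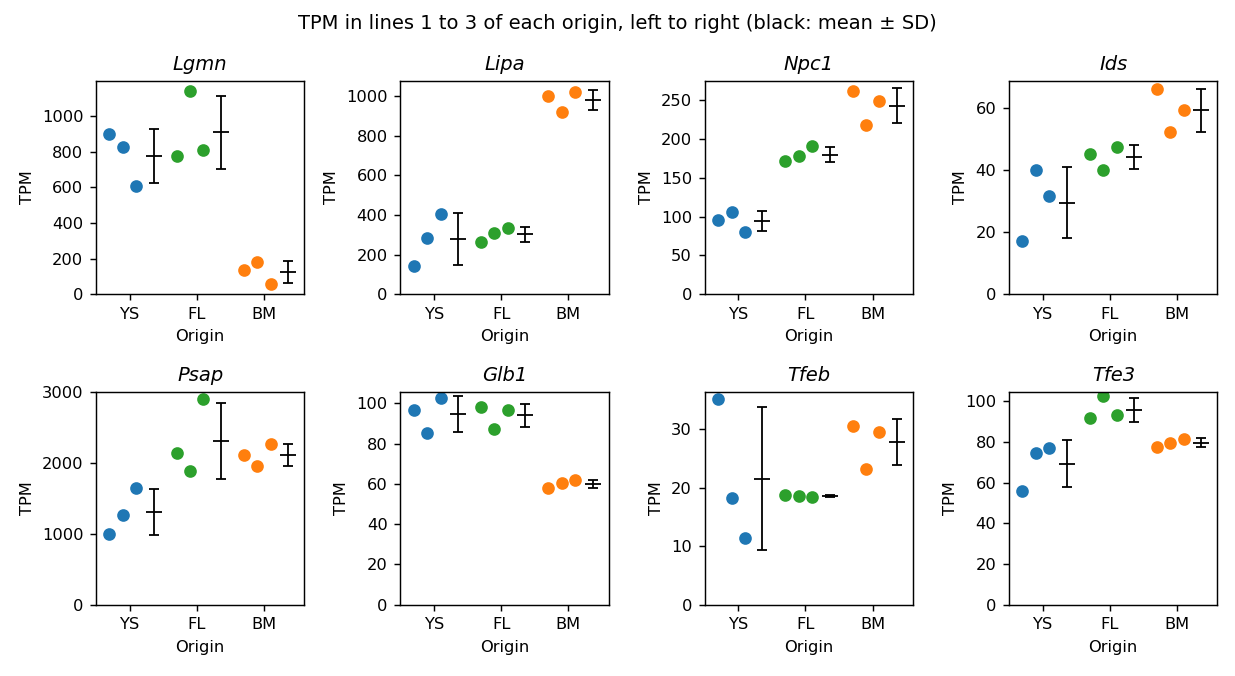
TPM in lines 1 to 3 of each origin (points, left to right) with the mean ± SD of the 3 lines (black) for 8 genes, on axes that start at 0. BM lines are lowest for Lgmn and Glb1 and highest for Lipa and Npc1, Psap is lowest in YS lines, and Tfeb spreads widely among YS lines.

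The 13 glycosidases cut sugars from glycolipids, glycoproteins and glycosaminoglycans, and the 4 that passed the FDR in some comparison, Glb1, Hexa, Gla and Galc, did so with changes under 2-fold. Glb1, the β-galactosidase, was at 96.5, 85.15 and 102.4 TPM in the YS lines, 98.01, 87.43 and 96.47 TPM in the FL lines and 57.76, 60.6 and 61.84 TPM in the BM lines. BM lines were below all others, by 0.64 ± 0.102 for YS (1.56-fold, adjusted p = 0.00424) and 0.64 ± 0.102 for FL (1.55-fold, adjusted p = 0.00405). Hexa, the α subunit of β-hexosaminidase, followed the same order of BM below the rest. It was at 836.15, 784.95 and 918.32 TPM in the YS lines, 808.48, 760.37 and 818.47 TPM in the FL lines and 554.42, 598.74 and 628.62 TPM in the BM lines. Hexa was higher by 0.51 ± 0.102 in YS (adjusted p = 0.00922) and by 0.42 ± 0.102 in FL lines (adjusted p = 0.0210).

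Gla, the α-galactosidase A, went the other way. It was at 41.4, 79.95 and 69.64 TPM in the YS lines, 68.85, 71.34 and 115.31 TPM in the FL lines and 106, 115.11 and 119.19 TPM in the BM lines. YS lines were below BM lines (-0.87 ± 0.266, adjusted p = 0.0406), while FL lines overlapped both. Without YS line 2, Gla passed the 2-fold limit as well, with a difference of -1.06. Galc, which cleaves galactosylceramide, was at 41.85, 39.25 and 23.35 TPM in the YS lines and at 50.17, 59.57 and 57.72 TPM in the FL lines (-0.71 ± 0.213, adjusted p = 0.0879). The remaining 9 glycosidases (Gaa, Gusb, Man2b1, Manba, Naglu, Neu1, Idua, Fuca1 and Aga) passed in no comparison, with differences between -0.75 and 0.31. Some of these varied more within a group than between groups, as Manba did in YS lines (113.17, 110.36 and 37.53 TPM).

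Of the 6 membrane proteins, Lamp1, Ctns and Cln3 each passed the FDR in 1 comparison, with changes under 2-fold. Lamp1, a heavily glycosylated protein that lines the lysosomal membrane, was at 1294.95, 1301.88 and 979.23 TPM in the YS lines, 1765.81, 1560.58 and 1758.55 TPM in the FL lines and 1373.22, 1418.98 and 1503.44 TPM in the BM lines. The groups did not overlap and were ordered YS, BM, FL, but only YS minus FL passed the FDR, at -0.52 ± 0.136 (1.43-fold, adjusted p = 0.0648), and this in 9 of 18 alternatives. The differences between neighbours in this order were -0.28 ± 0.136 for YS minus BM (adjusted p = 0.159) and 0.24 ± 0.136 for FL minus BM (adjusted p = 0.252). Lamp2, its relative with a role in autophagy, was at 208.79, 557.79 and 455.03 TPM in the YS lines, 511.4, 447.5 and 524.42 TPM in the FL lines and 509.28, 528.02 and 507.2 TPM in the BM lines. Apart from the low YS line 1, all groups overlapped, and the differences ran from -0.45 to -0.06 with none past the FDR.

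Ctns, the cystine exporter, was at 43.12, 41.55 and 42.41 TPM in the FL lines and at 30.65, 28.73 and 26.79 TPM in the BM lines (0.55 ± 0.147, adjusted p = 0.0323). Its YS values of 41, 36.06 and 27.49 TPM lay below all FL values and overlapped those of BM lines, and neither difference passed the FDR. Cln3, which is mutated in a juvenile form of neuronal ceroid lipofuscinosis, was higher by 0.36 ± 0.124 in FL than in BM lines (adjusted p = 0.0730). Exons of Cln3 share 442 bases with the opposite-strand gene Apobr, which was at 74.39 to 147.64 TPM, and since the strand setting of the counting is not given in the sources used here, reads of the pair may not be separable. Exons of Glb1 share 165 bases with Tmppe on the same strand, at 15.56 to 30.33 TPM and likewise lowest in BM lines. Opposite-strand exons also overlap Npc1, by 192 bases for Rmc1 and 90 bases for Gm15956, symbols not found in the expression table. Ppt1 shares 32 exon bases with the opposite-strand gene Cap1, at 842.21 to 1136.6 TPM. Cd63, a tetraspanin of late endosomes, and Mcoln1, a calcium channel, passed in no comparison.

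Tfeb was at 35.07, 18.18 and 11.39 TPM in the YS lines, 18.72, 18.55 and 18.39 TPM in the FL lines and 30.45, 23.22 and 29.51 TPM in the BM lines. YS lines held both the highest and the lowest value of the 9, and FL lines hardly differed from each other. FL lines were below BM lines without overlap, but the difference of -0.55 ± 0.329 did not pass (adjusted p = 0.286), and neither did those of YS with BM lines (-0.48) and with FL lines (0.07). Tfe3 was at 56.08, 74.74 and 77.01 TPM in the YS lines, 91.57, 102.39 and 93.29 TPM in the FL lines and 77.37, 79.66 and 81.71 TPM in the BM lines. Its groups were separate and ordered YS, BM, FL, the order of group means in 12 of the 35 genes. YS minus FL was -0.47 ± 0.131 (adjusted p = 0.0710), while the differences of neighbours, -0.21 for YS minus BM and 0.26 for FL minus BM, did not pass. Median differences of the 10 genes with the CLEAR core in their window, against the 22 without, were -0.29 and -0.19 for YS minus BM, 0.17 and 0.13 for FL minus BM and -0.29 and -0.24 for YS minus FL, given without a test.

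Tfe3, Gla, Ids and Lamp2 are on the X chromosome. The median difference of its 371 tested genes was -0.15 for YS minus BM, beside 0.11 for all other chromosomes. It was -0.03 beside 0.09 for FL minus BM and -0.17 beside 0.03 for YS minus FL. Xist, the RNA of the inactive X, was at 302.67 and 176.17 TPM in the FL lines 2 and 3 and at most 0.08 TPM in the other 7 lines. FL lines 2 and 3 were at 102.39 and 93.29 TPM for Tfe3 and FL line 1 at 91.57 TPM, and for Lamp2 and Ids FL line 1 was between the other two. For Gla, FL line 3 was at 115.31 TPM and FL line 2 at 71.34 TPM, near FL line 1. The part of the sex chromosomes in these values was not tested.

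The order of group means over the 35 genes was FL, BM, YS from high to low in 12 genes, among them Lamp1, Psap and Galc, and BM, FL, YS in 7, among them Npc1, Lipa and Ids. It was FL, YS, BM in 7, among them Lgmn and Grn, BM, YS, FL in 5, YS, FL, BM in 3 and YS, BM, FL in 1 (Manba). Many of these orders rest on differences within the spread of the lines. YS line 1 held the lowest value of the 9 lines in 12 genes and YS line 3 in 10, while these lines were lowest in 18.5% and 14.9% of all tested genes. FL line 2 held the highest value in 10 genes and FL line 3 in 6, where 15.1% and 6.44% of all tested genes were highest. The median SD within a group was 0.297 (log2) in YS, 0.184 in FL and 0.0912 in BM lines, close to that of all tested genes (0.275, 0.183 and 0.115). The YS lines also had the lowest Lyz2 values, 1163.15 to 3531.31 TPM against 5806.07 TPM or more in FL and BM lines. Their S100a8 values, given above, were the lowest as well, and the part of these markers in the result was not tested.

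To set the 35 genes beside the rest of the compartment, 129 other genes of 6 lists were counted, of which 121 passed the filter on low values. In YS against BM 17 were called (14%, 4 higher and 13 lower), in FL against BM 16 (13.2%, 8 higher and 8 lower) and in YS against FL 2 (1.65%, 1 in each direction), beside the 12.8%, 10.3% and 3.79% of all tested genes. Their median differences were -0.20, 0.04 and -0.20. Without BM line 3, the count between FL and BM lines was 9, and the 2 calls between YS and FL lines became 0 without FL line 2 or without BM line 1 and 1 without YS line 1 or without FL line 3.

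**Figure D4:**
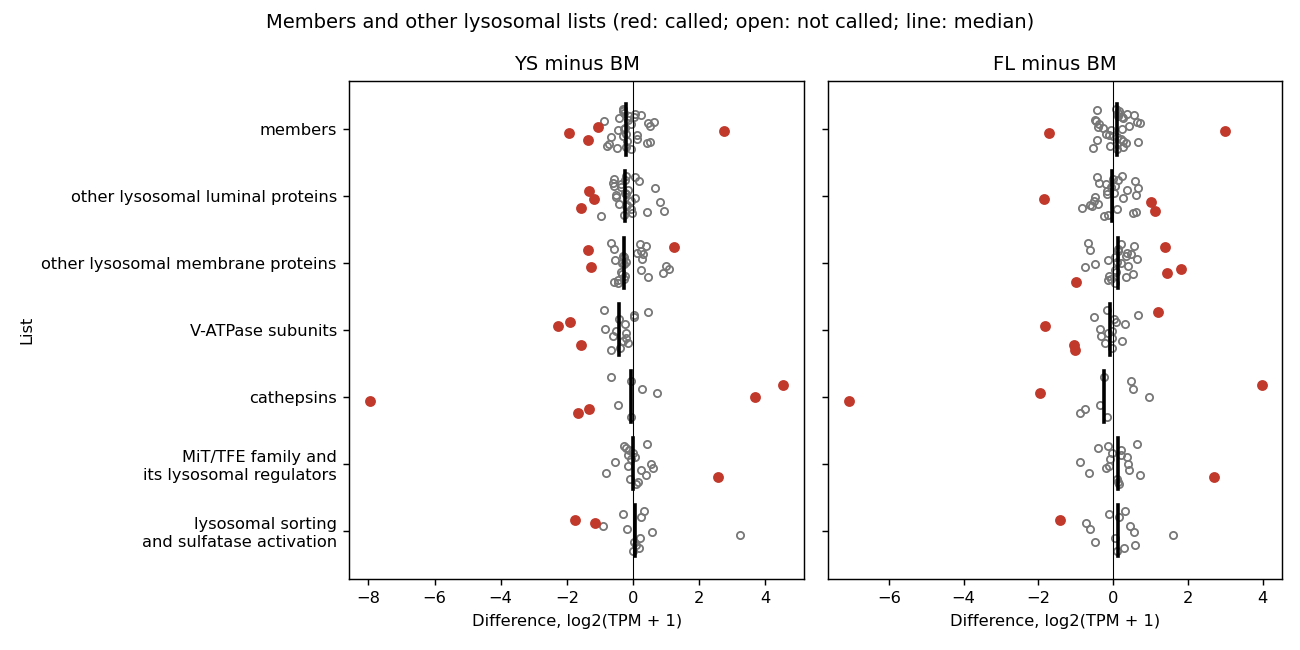
Differences of YS minus BM (left) and FL minus BM (right), as log2(TPM + 1), for the 35 genes and the 6 other lysosomal lists (rows), with 1 point per gene, red where called, and a line at the median of each list. Cathepsins spread most widely, with Ctsk at -7.95 and Ctsc at 4.54 for YS minus BM, and the V-ATPase median of -0.41 for YS minus BM is the lowest of the rows.

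Cathepsins, the main lysosomal proteases, held the largest changes, with 5 of 11 tested genes called between YS and BM lines (12.8% of all tested genes) and 3 between FL and BM lines (10.3% of all tested genes). Ctsk, a collagen-degrading cathepsin abundant in osteoclasts, was at 333.37, 90.21 and 1270.2 TPM in the BM lines and between 0.28 and 3.24 TPM in the other 6 lines. The values within BM lines differed widely, yet all were far above YS and FL lines. Ctsc, which activates granule serine proteases, was reversed, at 762.62, 503.55 and 317.57 TPM in the YS lines, 218.61, 429.68 and 396.52 TPM in the FL lines and 19.25, 71.54 and 5.58 TPM in the BM lines. Ctss, an antigen-processing protease, fell in YS lines to 1148.91, 1967.43 and 1715.73 TPM from 5176.49, 4040.85 and 5771.96 TPM in the BM lines (-1.65 ± 0.233, adjusted p = 0.00291), and Ctso was also lower there (-1.35 ± 0.285, adjusted p = 0.0115).

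Ctsh was called higher in YS than in BM lines on the basis of uneven values, 133.04, 14.54 and 0.44 TPM against 0.09 to 0.19 TPM, and the call was kept in 10 of 17 alternatives. Ctsf was listed at 0 in FL lines 1 and 2, at 2.96 TPM in FL line 3, at 19.72, 11.23 and 3.35 TPM in the YS lines and at 5.71, 5.59 and 4.36 TPM in the BM lines. It was called lower in FL than in both other groups, and these calls were kept in 10 of 18 alternatives against BM and 15 of 18 against YS lines. The 10 osteoclast markers listed, Ctsk and Atp6v0d2 among them, summed to 196.73 to 1424.44 TPM in the BM lines, 68.58 to 155.84 TPM in the YS lines and 59.99 to 69.44 TPM in the FL lines. Without Ctsk the sums were 106.52 to 154.24 TPM in BM, 68.24 to 155.56 TPM in YS and 58.97 to 66.20 TPM in FL lines. Of the defining markers, Nfatc1 was higher in BM lines past the FDR (92.81 to 114.34 TPM against 54.42 to 65.63 TPM), and Mmp9 reached 9.61 TPM in BM line 3. Dcstamp and Itgb3 were called higher in YS than in BM lines, and in BM lines Calcr was listed at 0 and Acp5 was at most 1.58 TPM. The part of these markers in the cathepsin values was not tested.

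The V-ATPase pumps protons into the lysosome. Of its 18 tested subunits and accessory proteins, 3 were called lower in YS than in BM lines, Atp6v0c, Atp6v0d2 and Atp6v1g1 (16.7%, beside 5.22% of all tested genes). At any fold 9 were lower, where 14.4% of all tested genes were. Between FL and BM lines 22.2% were called in either direction, beside 10.3% of all tested genes. Atp6v1g1 was at 387.22, 539.15 and 453.62 TPM in the YS lines, 569.95, 732.24 and 682.06 TPM in the FL lines and 1514.22, 1240.46 and 1339.52 TPM in the BM lines. The BM lines were above all others (-1.58 ± 0.155 for YS, adjusted p = 0.000883, and -1.05 ± 0.155 for FL, adjusted p = 0.00289).

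Tcirg1, the a3 subunit, and Atp6v0d2 were also called lower in FL than in BM lines, and Atp6ap2, the prorenin receptor, was called higher. Atp6ap2 was at 333.85, 269.28 and 325.51 TPM in the FL lines, 139.83, 130.14 and 133.41 TPM in the BM lines and 130.59, 187.12 and 250.04 TPM in the YS lines. Atp6v0c, the proton-carrying ring subunit, was called lower in YS lines (4.22, 13.34 and 5.22 TPM) than in FL lines (24.07, 31.14 and 35.79 TPM) as well as BM lines (21.92, 16.47 and 61.53 TPM). That call was kept against FL lines in 13 of 18 alternatives and against BM lines in all 18. At any fold, 8 of the 18 were lower in YS than in FL lines, where 6.56% of all tested genes were. The calls of Tcirg1, Atp6v0d2 and Atp6v1g1 between FL and BM lines were kept in 16, 14 and 16 of 18 alternatives.

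Among 14 genes of sorting and sulfatase activation, the 2 genes called were both subunits of the enzyme that makes the mannose 6-phosphate tag. Calls made up 14.3% of the list in YS against BM and 7.14% in FL against BM, beside 12.8% and 10.3% of all tested genes. Gnptab was at 57.74, 39.96 and 32.91 TPM in the YS lines, 41.19, 59.17 and 61.24 TPM in the FL lines and 151.49, 121.01 and 163.21 TPM in the BM lines. BM lines were above all others (-1.74 ± 0.232 for YS, adjusted p = 0.00241, and -1.42 ± 0.232 for FL, adjusted p = 0.00421). Gnptg was called lower in YS than in BM lines (-1.14 ± 0.214, adjusted p = 0.00745), from 63.2, 69.71 and 78.55 TPM to 22.72, 30.95 and 43.41 TPM, though at -0.92 without YS line 1.

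Of the other lysosomal membrane proteins, 29 tested, 10.3% were called in YS against BM and 13.8% in FL against BM, beside 12.8% and 10.3% of all tested genes. Clcn7 (a chloride and proton exchanger) and Slc11a1 (a metal ion transporter of phagosomes) were called lower in YS than in BM lines, with differences of -1.37 and -1.28. Cd164, a sialomucin, was called higher in YS and in FL than in BM lines, by 1.25 and 1.38. Slc15a3 (a peptide and histidine transporter) and Slc29a3 (a nucleoside transporter) were called higher in FL than in BM lines, by 1.81 and 1.45, and Tpcn1 (an ion channel of endosomes and lysosomes) was called lower, by 1.01 on the log2 scale. The Tpcn1 call was kept in 15 of 18 alternatives and the Slc15a3 call in 17.

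Of 30 other luminal proteins, 10% were called in YS against BM and 10% in FL against BM, beside 12.8% and 10.3% of all tested genes. Ppt2 (a thioesterase), Naaa (which hydrolyses N-acylethanolamines) and Gm2a (the activator of ganglioside GM2 breakdown) were called lower in YS than in BM lines. Their differences were -1.57, -1.18 and -1.33, and the calls of Naaa and Gm2a were kept in 15 and 8 of 18 alternatives. Gm2a was at 7.26 TPM in YS line 1 and 35.74 and 36.17 TPM in the YS lines 2 and 3, and the difference was -0.61 without YS line 1. In FL against BM lines Naaa was lower by 1.84 and Rnaset2a (a ribonuclease, with the near copy Rnaset2b in mouse, so that reads may be shared) and Pcyox1 (prenylcysteine oxidase) were higher by 1.11 and 1.01, calls kept in 17 and 12 of 18 alternatives.

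Among 19 genes of the TFEB family and its regulators, Rragd, a Rag GTPase of the lysosomal surface, was the 1 gene called. This was 5.26% of the list both in YS against BM and in FL against BM, beside 12.8% and 10.3% of all tested genes. Rragd was listed at 0 in BM lines 1 and 3, with 2.25 TPM in BM line 2, against 12.22, 8.02 and 4.74 TPM in the YS lines and 9.68, 1.99 and 26.61 TPM in the FL lines. It was called higher in both, with YS lines apart from BM lines and FL line 2 just below BM line 2. These calls were kept in 15 and 14 of 18 alternatives.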

How the data were processed

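RNA of 9 macrophage lines (3 YS, 3 FL, 3 BM) was sequenced from poly(A)-selected, strand-specific libraries. The authors deposited TPM for 24411 gene symbols. The submitters' processing notes name Trim Galore 0.6.6, STAR 2.7.9a and RSEM 1.3.3, and the genome build and annotation of the table are not given in the sources used here. Groups came from the sample labels. TPM keeps no depth, so no counting interval was computed.

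From the deposited TPM, log2(TPM + 1) was computed, and genes reaching 1 TPM in 3 or more of the 9 libraries (11753) were tested with limma 3.58.1 in R 4.3.3 (all 9 libraries in 1 model, trended empirical Bayes, p-values adjusted per comparison by Benjamini-Hochberg). The study's thresholds were used. The fit was tested on simulated data. Alternatives changed the pseudocount, filter, scaling, trend, block, libraries in the fit and the FDR limit. Those for the other lysosomal lists were added after the data were seen. Alternatives for single genes number 18, without the FDR limit.

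The 35 genes and the other lists were chosen with earlier results of these data known. Of the 35, genes given library by library were those called, Tfeb, Tfe3, Lamp1 and Lamp2, and 10 examples past the FDR by size of difference (in part for the 2 groups compared). The called genes of each other list were named, up to 6 per list, some with library values. Manba and the cell type markers with values were picked after these were seen. The same-numbered lines of the 3 groups were not treated as pairs. Promoter windows were read from RefSeq (GRCm38.p6) and exon overlaps from GENCODE M21, with Python 3.11.15.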

Additional observations from a re-analysis of the deposited data

How the results depend on the processing

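The alternatives were a pseudocount of 0.1 or 4 TPM, no filter or a filter of 5 TPM, quantile normalization, median-of-ratios scaling, no intensity trend, a fit of the 6 libraries of a pair, the replicate number as a block, an FDR limit of 0.05 and each line left out in turn. The number of the 35 genes called stayed between 3 and 5 for YS against BM and at 2 for FL against BM. For YS against FL it was 0 in all except 3 settings that left out a line (range 0 to 1), with Npc1 called without YS line 2, Psap without YS line 3 and Sgsh without FL line 1 (-1.05). Ids was at -0.97 with a pseudocount of 4 TPM, under the 2-fold limit.

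Counts at any fold moved more. For YS against BM they were 15 with quantile normalization and 16 with median-of-ratios scaling, and from 6 to 13 with a line left out. For FL against BM they were 17 in the fit of the pair and from 5 to 15 with a line left out. For YS against FL they were 2 with no filter, 1 in the fit of the pair, 1 at an FDR of 0.05 and from 1 to 8 with a line left out. Counts over all tested genes moved too, to 4763 for FL against BM in the fit of the pair. For YS against FL these were 1192 with no filter, where more genes were tested, 98 in the fit of the pair and 479 at an FDR of 0.05. The other lists gave 9 to 16 calls for FL against BM and 0 to 3 for YS against FL with a line left out, and for YS against FL 0 in the fit of the pair and 0 at an FDR of 0.05. No called difference of a named gene reversed, and the causes were not tested.

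The labels number the lines 1 to 3 in each group, without stating pairs. Deviations of same-numbered lines from their group means correlated with r from -0.118 to 0.088 over 9 pairs, and those of different-numbered lines with r from -0.138 to 0.118. Same-numbered lines were thus no more alike than others, which does not exclude that they were paired. With the replicate number as a block, 4, 2 and 0 of the 35 genes were called, and 12, 10 and 3 passed the FDR at any fold. Of all tested genes, 1230 passed in the last of these comparisons, YS against FL.

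An exact two-sided permutation test of 3 lines against 3 cannot go below p = 0.1. TPM without read counts leaves the precision of low genes to the spread of the lines.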
